A study of Mus musculus with 10 samples.

Results

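The 6 genes described here encode the interleukin-7 receptor and the first steps of its signal: Il7r and Il2rg, the 2 chains of the receptor, Jak1 and Jak3, the kinases bound to those chains, and Stat5a and Stat5b, the transcription factors that the kinases switch on. They were chosen by name for their place in the pathway, are 6 of the 23420 genes in the count tables, and all 6 had enough reads to be tested. RNA had been sequenced from mouse bone marrow cells of strain C57BL/6, sorted with antibodies into pro-B cells (B220+ IgM- CD43+) and small pre-B cells (B220+ IgM- CD43-, also sorted on light scatter, a measure of size). Each cell type came from mice labelled Control and from mice labelled Mta2_VavKO, a knockout (KO) of the chromatin protein Mta2 driven by Vav, a gene active across blood cells, so that other blood cells than B cells carry the deletion too. The pro-B groups held 2 libraries each and the small pre-B groups 3 each. Ages, litters, the control genotype and the alleles behind the knockout are not given in the sources used here, and no agent was named for any group. Nothing says that the libraries of a group came from separate animals, so p-values measure the spread between these libraries, which may be technical.

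Interleukin-7 is made by stromal cells of the bone marrow and is the main growth factor of early B cells in the mouse. It binds the alpha chain (Il7r), which then pairs with the common gamma chain (Il2rg), a chain shared with the receptors for several other interleukins. Jak1 sits on the alpha chain and Jak3 on the gamma chain, and once brought together they phosphorylate the receptor and Stat5a and Stat5b, which enter the nucleus and switch on genes for survival and division. Pro-B cells divide in response to interleukin-7, and small pre-B cells have stopped dividing and rearrange their light chain genes.

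In mm10, Il7r spans chr15:9506159-9529876 on the minus strand, Il2rg chrX:101264387-101268206 on the minus strand, Jak1 chr4:101151974-101265282 on the minus strand and Jak3 chr8:71676383-71690577 on the plus strand. Stat5b (chr11:100780731-100850585, minus strand) and Stat5a (chr11:100859351-100885169, plus strand) lie beside each other, 8765 bases apart and pointing away from each other. The values below are sums over all exons of each gene, so they do not tell isoforms apart. Of the 7407 stretches of 50 bases in the Stat5a transcripts, 608 (8.21%) also occur in Stat5b, and these are 11.0% of the Stat5b stretches, so part of the reads could come from either gene and the division between them is less certain. Jak1 and Jak3 share no such stretch. Jak1 shares 397 bases of exon (7.49% of its length) with Raver2 on the opposite strand and Jak3 shares 406 bases (9.94%) with Insl3 on the same strand, and the counting recorded no strand option, so reads there are less certain too.

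The stretches just upstream of the start sites are shown for both receptor chains, because one chain differed between the cell types and the other did not pass the test, and for Stat5a and Stat5b, because the pair share sequence there. They come from RefSeq (GRCm38.p6, the assembly called mm10), where all 6 symbols matched, and 7 short motifs were searched on both strands of the 250 bases upstream of each start site. Upstream of Il7r (chr15:9529877-9530040, minus strand, from 164 bases before the start site up to it, leaving out 86 bases further upstream that are an exon of another Il7r transcript in GENCODE) the capitals mark the letters of a STAT5 site, TTCNNNGAA, 142 bases before the start site, and those of an ETS site, AGGAAG, read on the other strand, 48 bases before it.
Il7r: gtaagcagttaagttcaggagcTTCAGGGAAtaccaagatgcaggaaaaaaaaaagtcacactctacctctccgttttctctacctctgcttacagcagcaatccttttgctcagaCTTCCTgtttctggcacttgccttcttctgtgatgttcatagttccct
Upstream of Il2rg (chrX:101268256-101268505, minus strand) the capitals mark, in order, the letters of an Ikaros site (TGGGAA), a RUNX site (TGTGGT), an ETS site on the other strand and an EBF1 site (searched by its 10-letter palindrome), and no TTCNNNGAA was found.
Il2rg: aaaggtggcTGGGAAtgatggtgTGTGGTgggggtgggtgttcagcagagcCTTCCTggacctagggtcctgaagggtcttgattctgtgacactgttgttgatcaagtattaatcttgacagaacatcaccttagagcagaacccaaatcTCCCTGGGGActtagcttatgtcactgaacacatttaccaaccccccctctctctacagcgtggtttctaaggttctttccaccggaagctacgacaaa
Of 32851 upstream windows of the same length in mouse, 7.02% held TTCNNNGAA, 29.5% AGGAAG, 21.6% TGGGAA, 14.0% TGTGGT and 0.779% the EBF1 letters, and none of the matches above overlap each other. Neither Jak gene held any of the 7 motifs in its window, the others being a FOXO site (TGTTTAC, 3.17% of windows) and an E-box (CAGCTG, 13.0%). Stat5a and Stat5b each have a second, more internal start site, and the windows upstream of these share 55 bases of which 49 (89.1%) are identical. The 30 bases of it with the most matches are printed here, with capitals at the 2 bases that differ, from chr11:100860435-100860464 (plus strand) for Stat5a and chr11:100822581-100822610 (minus strand) for Stat5b. All 30 bases of the Stat5a copy lie in an exon of another Stat5a transcript in GENCODE, and the Stat5b copy overlaps no exon there.
Stat5a: gcagctgacctttGagGaggaaatcgctgc
Stat5b: gcagctgacctttTagAaggaaatcgctgc
Both copies hold the E-box letters near their 5′ end, 48 bases before the start site in Stat5a and 39 in Stat5b. AGGAAG was found once in the window of the first start site of each, 96 bases before it in Stat5a and 57 in Stat5b. It was also found 10 bases before the second start site of Stat5a, just past the printed stretch, and not in the matching window of Stat5b. A match of letters is a description only, and no binding was measured.

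Mta2 read counts were lower in every KO library than in every control of the same cell type. In pro-B cells they were 436 and 375 CPM (counts for each 1000000 counts of the library, scaled between libraries by the trimmed mean of M values, TMM) in the controls against 163 and 166 in the KO libraries, which did not pass the test (adjusted p = 0.212, edgeR quasi-likelihood). In small pre-B cells they were 438, 246 and 412 CPM against 199, 179 and 198 (log2 fold change -0.93, SE 0.19, adjusted p = 0.042), a call lost in 12 of 16 alternative fits. Library totals ran from 17805507 to 52127004 counts, so 3 counts equal 0.054 to 0.173 CPM, far below every level given for the 6 genes. The third small pre-B control stood apart from the other 9 libraries, with 0.953% of its counts in histone genes against at most 0.0399% elsewhere and Malat1, a nuclear RNA, at 15280 CPM against at most 2956. Small pre-B KO libraries 1 and 2 held 2518 and 2942 CPM of Xist, which coats the silent X chromosome of female cells, against at most 31.4 in the other 8, and summed Y-linked RNA at 8.13 and 0.079 CPM against 224 or more. The B lineage markers (7 genes, among them Cd79a, Pax5 and Ptprc) were read in every library. They summed to 2077 to 2636 CPM in the pro-B and 6088 to 8817 CPM in the small pre-B libraries. In both genotypes 6 of the 7 were called higher in small pre-B cells. Ptprc, which is not specific to B cells, went the other way. It was at 941 to 1040 CPM in pro-B and 576 to 939 CPM in small pre-B libraries. Of the 7 genes it gave the largest part of each pro-B sum. Small pre-B markers (5 genes, among them Rag1, Il2ra and Cd74) summed to 1319 to 1549 CPM in pro-B libraries. In small pre-B libraries they summed to 3342 to 7022 CPM. Cd74 made up most of the pro-B sums. It went the other way, at 990 to 1180 CPM in pro-B and 160 to 589 CPM in small pre-B libraries. In both genotypes 4 of the 5 were called higher in small pre-B cells and 1 lower. Pro-B markers (6 genes, among them Kit and Dntt) summed to 1298 to 1682 CPM in pro-B and 290 to 1792 CPM in small pre-B libraries. Of these 6, 2 were called lower in controls and 1 in KO mice, and 0 higher. Over all genes tested, 26.0% were called higher and 29.4% lower in controls, and 24.0% and 27.3% in KO mice. Of all these markers, Il2ra, Ebf1 and Ptprc are also in the pathway lists below. Markers of other blood cells were also present, mostly in the pro-B libraries, and their values stand beside the comparison of the cell types.

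Per kilobase of exon, which allows genes of different length to be compared, the receptor chains and Jak1 were the most abundant of the 6 RNAs in every group and Jak3, Stat5a and Stat5b the least. In pro-B controls Il7r stood at 101 ± 15.3 CPM per kb and Il2rg at 100.3 ± 4.08 (SD, n = 2), and their libraries overlapped. Jak1 followed at 70.6 ± 2.51 CPM per kb. Jak3 (25.3 ± 0.503) and Stat5b (24.8 ± 0.441) overlapped, and Stat5a was lowest at 21.9 ± 0.55. The pro-B KO libraries kept both chains ahead of Jak1, with Il2rg at 94.3 ± 14.1 and Il7r at 84.5 ± 2.02 CPM per kb, while Stat5b (28.2 ± 1.2) overlapped Jak3 (26.9 ± 4.59), which in turn overlapped Stat5a (24.8 ± 2.57).

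In small pre-B controls the order opened up. Il7r stood at 299 ± 37.7 CPM per kb (SD, n = 3), and its lowest library (268) was far above the highest of Il2rg (90.7). Il2rg (83.0 ± 10.9) and Jak1 (72.4 ± 4.07) overlapped. Stat5b came next at 21.3 ± 0.953 CPM per kb, apart from the genes on either side. Stat5a (12.7 ± 1.21) and Jak3 (9.28 ± 3.33) overlapped at the bottom, Jak3 having gone from the fourth place to the last. In the small pre-B KO libraries the first 4 places were the same, with Il7r at 267 ± 27.7, Il2rg at 99.7 ± 10.6, Jak1 at 65.5 ± 7.63 and Stat5b at 18.7 ± 2.53 CPM per kb, and Jak3 (11.4 ± 1.99) overlapped Stat5a (10.8 ± 1.5). The panels of levels by library show this order and the step between the cell types.

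**Figure D1:**
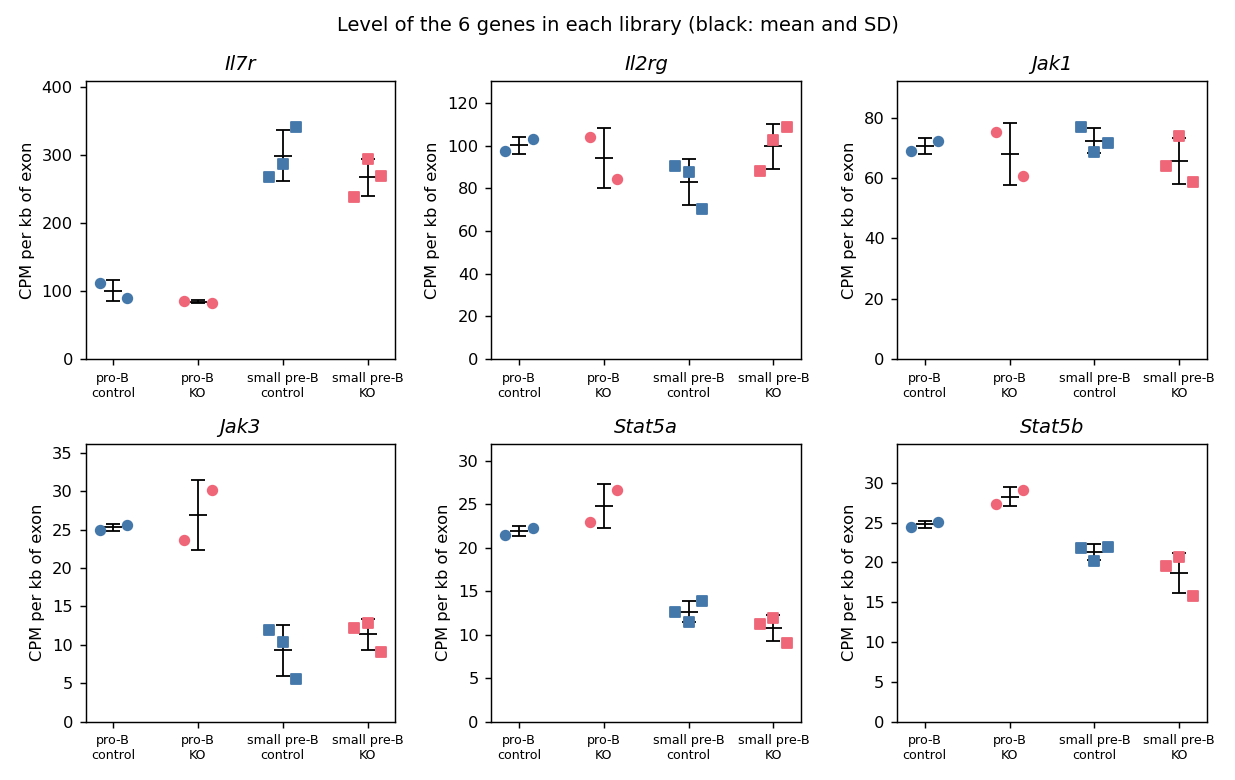
Level of each of the 6 genes in every library, in TMM-scaled CPM per kb of exon (vertical axis, from 0, with its own scale for each gene), for the 4 groups on the horizontal axis; circles are pro-B and squares small pre-B libraries, blue control and red KO, and the black marks are the group mean and SD (n = 2 pro-B, n = 3 small pre-B). Il7r lies between 83.1 and 112 in pro-B and between 239 and 341 in small pre-B libraries, while Jak3 and Stat5a lie lower in all 6 small pre-B libraries than in any pro-B library.

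The first comparison asked how the pathway differs between the stages in control mice, small pre-B against pro-B. Il7r, the chain that makes the receptor specific for interleukin-7 and its relative Tslp, was 2.97-fold higher in small pre-B cells. Jak3 was 2.73-fold lower and Stat5a 1.73-fold lower, while Il2rg, Jak1 and Stat5b did not pass the test. Of the 6 genes, 1 was called higher and 2 lower, where 26.0% of all 14161 genes tested were called higher and 29.4% lower, so as a count the 6 genes were near the rest of the genes.

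Il7r was at 359 and 289 CPM in pro-B controls 1 and 2 and at 862, 924 and 1095 CPM in small pre-B controls 1 to 3. The lowest small pre-B control was thus above the highest pro-B control, and the library that stood apart was the highest. The log2 fold change was 1.57 (95% interval 1.21 to 1.93, adjusted p = 5.98e-05, edgeR quasi-likelihood), and 1.47 without that library. Its partner Il2rg was at 157 and 166 CPM against 146, 142 and 114 CPM, lower in each small pre-B control but by a margin that did not pass (log2 fold change -0.27, interval -0.61 to 0.06, adjusted p = 0.144).

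The kinases parted. Jak1, which binds Il7r, was at 364 and 383 CPM in pro-B controls and at 407, 364 and 380 CPM in small pre-B controls, with overlapping groups and a log2 fold change of 0.04 (interval -0.26 to 0.34, adjusted p = 0.828). Jak3, which binds the gamma chain, was at 102 and 105 CPM against 48.8, 42.3 and 22.7 CPM. Every small pre-B control was below every pro-B control, and the third control, which stood apart, was lowest. The log2 fold change of -1.45 (interval -2.09 to -0.81, adjusted p = 0.00226) was -1.18 without that library.

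Stat5a, 1 of the 2 near-identical STAT5 factors, was at 83.7 and 86.7 CPM in pro-B controls and at 49.1, 44.6 and 54.0 CPM in small pre-B controls, with no overlap. It fell by 0.79 on the log2 scale (interval -1.11 to -0.48, adjusted p = 0.00133). Stat5b was at 133 and 137 CPM against 118.5, 110 and 119.5 CPM, also with no overlap, but the log2 fold change of -0.22 (interval -0.49 to 0.06) did not pass (adjusted p = 0.154). The 3 calls for Il7r, Jak3 and Stat5a held in all 15 alternative fits.

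The same comparison in KO mice compared no library of the first one, but both rest on the scaling and spread fitted to all 10 libraries. There Il7r was higher and Jak3, Stat5a and Stat5b lower in small pre-B cells, so 1 gene was called higher and 3 lower (24.0% and 27.3% of all genes tested). Il7r was at 276 and 267 CPM in pro-B and at 766, 944 and 865 CPM in the small pre-B group (log2 fold change 1.66, interval 1.30 to 2.02, adjusted p = 4.38e-05). Jak3 was at 96.6 and 123 against 50.02, 52.2 and 37.2 CPM (log2 fold change -1.24, interval -1.88 to -0.61, adjusted p = 0.00545), a call that was lost without pro-B KO library 2 (adjusted p = 0.0511).

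Stat5a was at 89.4 and 104 CPM in pro-B and at 43.7, 46.6 and 35.3 CPM in the small pre-B group, a 2.3-fold lower level (log2 fold change -1.20, adjusted p = 0.000127). Stat5b was at 149 and 158 against 107, 112 and 86.2 CPM, 1.51-fold lower (log2 fold change -0.60, interval -0.87 to -0.32, adjusted p = 0.00312). Stat5b thus passed in the KO libraries and not in the controls, but the difference between those 2 changes did not pass (unadjusted p = 0.0574, adjusted p = 0.768). Il2rg was at 168 and 136 CPM against 142, 166 and 175 CPM (log2 fold change 0.08, interval -0.26 to 0.42) and Jak1 at 398 and 322 against 340, 391 and 311 CPM (log2 fold change -0.05, interval -0.35 to 0.25). For both the groups overlapped.

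RNA of other blood cells moved with the cell types. The summed markers of plasmacytoid dendritic cells (5 genes, among them Siglech and Bst2) were at 2547 to 2861 CPM in pro-B and 13.6 to 37.4 CPM in small pre-B libraries, and those of myeloid cells (10 genes, among them Mpo and S100a8) at 6317 to 15090 against 104 to 377 CPM. Markers of T cells (12 genes) were at 551 to 742 against 22.1 to 237 CPM, and those of natural killer and innate lymphoid cells (9 genes) at 350 to 560 against 9.32 to 153 CPM. Of the T cell sums in pro-B libraries, Cd4 alone gave 231 to 313 CPM and Cd3e 7.62 to 19.9 CPM. Between the controls, 36 of these 36 markers were called lower in small pre-B cells (29.4% of all genes tested), and 26 of the 36 in KO mice (27.3% of all genes), with 5 of 12 for T cells and 6 of 9 for natural killer cells. Klk1, Cd209d and Rora had 0 counts in at least 1 small pre-B library, and no marker was at 0 in the pro-B libraries. The part of these cells in the differences of Il7r, Jak3 and Stat5a between the cell types was not tested. In sorted bulk samples, fewer cells of a type and less RNA per cell cannot be told apart, and neither can cell type and any handling that differed between the cell types.

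**Figure D2:**
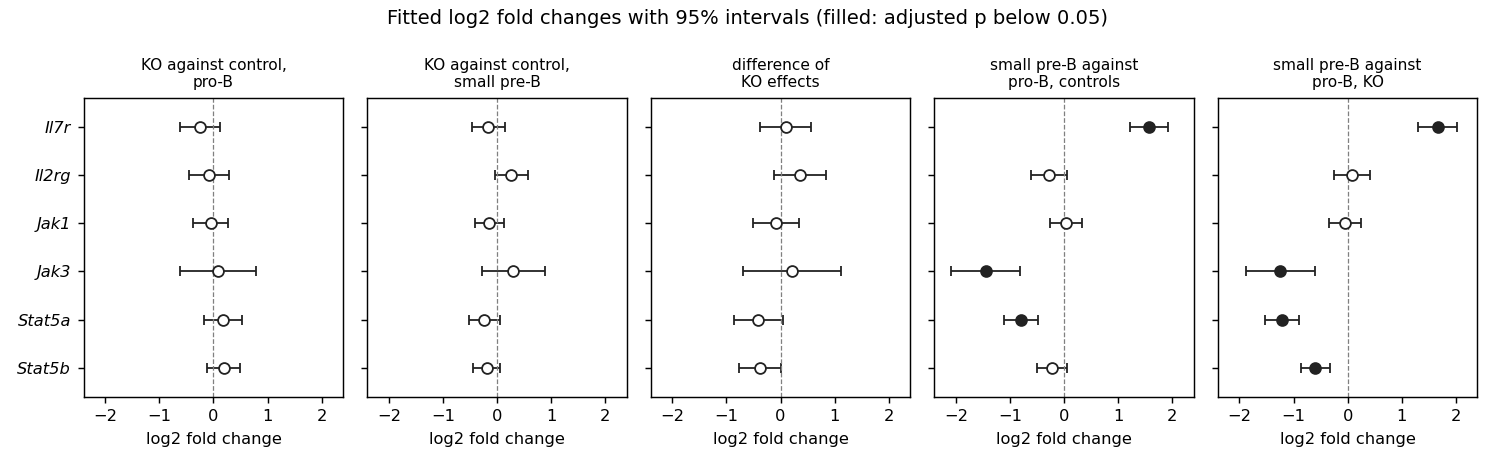
Fitted log2 fold change (horizontal axis) with its 95% interval for each of the 6 genes (rows) in the 5 comparisons (panels), filled where the adjusted p was below 0.05. Il7r is near 1.6 in both comparisons of the cell types, Jak3 and Stat5a lie below 0 there, and the intervals of all 6 genes reach across 0 in the 3 panels on the knockout.

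Because receptor chains, kinases and STAT5 factors work in pairs, their ratio within each library was computed from levels per kb, which is free of the scaling between libraries. Il2rg was about level with Il7r in the 4 pro-B libraries, at a ratio of 0.871 and 1.15 in the controls and of 1.21 and 1.01 in the KO libraries. In the small pre-B libraries it fell to 0.338, 0.305 and 0.207 in the controls and to 0.368, 0.349 and 0.403 in the KO libraries. All 6 small pre-B libraries were below all 4 pro-B libraries. On the log2 scale the mean went from 0.07 ± 0.21 (SD, n = 4) to -1.64 ± 0.34 (n = 6), a ratio 3.27-fold lower (exact permutation test over libraries, two-sided, p = 0.00952, adjusted over 3 ratios to 0.00952, the smallest p the 210 arrangements allow).

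The ratio of Jak3 to Jak1 was 0.362 and 0.354 in pro-B controls and 0.315 and 0.496 in pro-B KO libraries, and 0.156, 0.151 and 0.0774 in small pre-B controls and 0.191, 0.173 and 0.155 in small pre-B KO libraries. Again the cell types did not overlap, and the ratio was 2.6-fold lower in small pre-B cells (log2 means -1.41 ± 0.28 and -2.79 ± 0.46, exact permutation p = 0.00952, adjusted 0.00952). Stat5b exceeded Stat5a per kb in all 10 libraries. The ratio of Stat5b to Stat5a was 1.09 to 1.19 in pro-B and 1.58 to 1.76 in small pre-B libraries, 1.51-fold higher in the latter (log2 means 0.18 ± 0.05 and 0.78 ± 0.06, exact permutation p = 0.00952, adjusted 0.00952). These tests pool both genotypes, and the sharing of reads between Stat5a and Stat5b makes the last ratio less certain than the others. Each ratio was that of a whole library, with the RNA of other blood cells in it, and the part of those cells was not tested. Without the third small pre-B control the differences in the ratios were -1.58, -1.19 and 0.61 on the log2 scale. The ratios use the counts behind the calls of Il7r, Jak3 and Stat5a, so their tests are not independent of those calls.

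**Figure D3:**
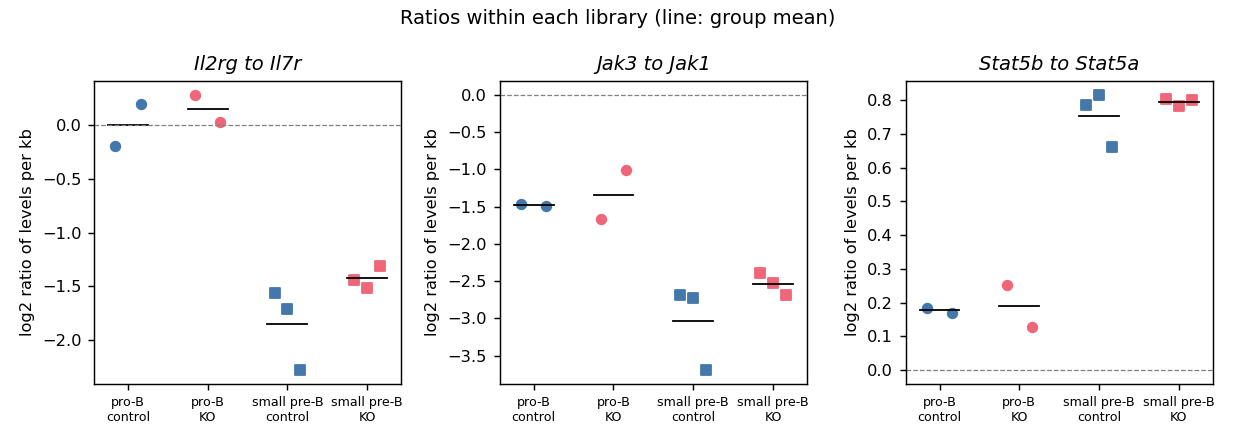
Log2 ratio of levels per kb within each library (vertical axis) for Il2rg to Il7r, Jak3 to Jak1 and Stat5b to Stat5a, by group (horizontal axis), with circles for pro-B and squares for small pre-B libraries, blue for control and red for KO, and a black line at the group mean; the dashed line at 0 marks equal levels. All 6 small pre-B libraries lie below the 4 pro-B libraries in the first 2 panels and above them in the third.

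The next comparison asked whether loss of Mta2 changes the pathway in pro-B cells. None of the 6 genes passed the test there, where 0.0353% of all genes (5) were called, and all 6 had an adjusted p of 1. In the DESeq2 Wald test, which called 182 genes, none of the 6 passed either. Il7r was at 359 and 289 CPM in controls and 276 and 267 CPM in KO libraries, both KO values below both controls (log2 fold change -0.26, interval -0.63 to 0.12). Without control 1 the change was -0.0916 and without control 2 it was -0.403. Stat5a was at 83.7 and 86.7 against 89.4 and 104 CPM (0.18, interval -0.17 to 0.53) and Stat5b at 133 and 137 against 149 and 158 CPM (0.19, interval -0.12 to 0.49), both with each KO library above each control. The log2 fold changes of Il2rg, Jak1 and Jak3 were -0.09, -0.05 and 0.09, with overlapping libraries for Il2rg, Jak1 and Jak3. With 2 libraries a group, the interval allowed changes of Il7r between a 0.648-fold and a 1.08-fold level and of Jak3 between a 0.654-fold and a 1.73-fold level. Myeloid markers summed to 6317 to 6508 CPM in the pro-B controls and 10170 to 15090 CPM in the pro-B KO libraries. Of these 10 markers 0 were called, beside 0.0353% of all genes, and their part in these values was not tested.

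In small pre-B cells 3.02% of all genes (428) were called between KO and control, and again none of the 6 genes passed, with adjusted p between 0.252 and 0.501. DESeq2 called 1869 genes and none of the 6. Il7r was at 862, 924 and 1095 CPM without and 766, 944 and 865 CPM with the knockout, with overlap (log2 fold change -0.16, interval -0.46 to 0.14, adjusted p = 0.482). Il2rg, which lies on the X chromosome, was at 146, 142 and 114 CPM against 142, 166 and 175 CPM (0.27, interval -0.04 to 0.57, adjusted p = 0.252), and the KO libraries with Xist RNA held the lower 2 of the 3 KO values.

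Jak3 was at 48.8, 42.3 and 22.7 CPM without and 50.02, 52.2 and 37.2 CPM with the knockout (log2 fold change 0.30, interval -0.28 to 0.88, adjusted p = 0.501). Without the third control, which stood apart, this change was 0.03. Jak1 was at 407, 364 and 380 CPM against 340, 391 and 311 CPM (-0.14, interval -0.41 to 0.13, adjusted p = 0.482). Stat5a was at 49.1, 44.6 and 54.0 CPM against 43.7, 46.6 and 35.3 CPM (-0.23, interval -0.52 to 0.05, adjusted p = 0.282), and Stat5b at 118.5, 110 and 119.5 CPM against 107, 112 and 86.2 CPM (-0.19, interval -0.44 to 0.06, adjusted p = 0.314). In both STAT5 genes KO library 3 was the lowest of the 6 and the groups overlapped. Without it the changes were -0.126 for Stat5a and -0.0822 for Stat5b, and without the third control that of Il7r was -0.0582 and that of Il2rg 0.159. The widest interval, that of Jak3, allowed a 0.822-fold to a 1.84-fold level, and that of Stat5b a 0.738-fold to a 1.04-fold level.

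The paired ratios in small pre-B cells did not pass either, in a design of 3 against 3 libraries where the smallest exact permutation p is 0.1. The log2 ratio of Il2rg to Il7r was -1.42 ± 0.10 in KO and -1.85 ± 0.37 in control libraries (SD, n = 3, exact permutation p = 0.1, adjusted over 3 ratios to 0.3), with every KO library above every control. The difference of 0.43 was 0.22 without the third control. That of Jak3 to Jak1 was -2.54 ± 0.15 against -3.04 ± 0.57 (exact permutation p = 0.2, adjusted 0.3), and this difference of 0.50 was 0.17 without the third control. The log2 ratio of Stat5b to Stat5a was 0.80 ± 0.01 against 0.75 ± 0.08 (exact permutation p = 0.7, adjusted 0.7).

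Whether the knockout acted differently in the 2 cell types was tested as the difference between its effects. No gene passed (0% of 14161, with 907 at an unadjusted p under 0.05 and 58 called by DESeq2), and none of the 6 genes did by either tool. The 2 STAT5 genes were nearest: Stat5b, with KO effects of 0.19 in pro-B and -0.19 in small pre-B cells, differed by -0.38 (interval -0.77 to 0.01, unadjusted p = 0.0574, adjusted p = 0.768), and Stat5a, with 0.18 and -0.23, by -0.41 (interval -0.87 to 0.04, unadjusted p = 0.0681, adjusted p = 0.768). The difference for Il2rg was 0.35 (interval -0.12 to 0.83). Those for Il7r, Jak1 and Jak3 were 0.09, -0.09 and 0.21.

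Other genes of the pathway were described from 7 lists of 53 genes, of which 51 were tested. Interleukin-7 itself (Il7) had 0 to 21 counts a library and did not pass in any comparison, Tslp had 0 to 16 counts and was not tested, and Spi1 was not analysed here. Between small pre-B and pro-B controls 19 of the 51 were called higher and 14 lower, where 26.0% of all genes tested were called higher and 29.4% lower, with a median log2 fold change of 0.295 beside -0.0232 over all genes. In KO mice 18 were called higher and 14 lower, beside 24.0% and 27.3% of all genes (median 0.225 beside -0.0164), and 12 of these 32 calls were lost in at least 1 of 15 alternative fits. In controls 21 of the 33 calls held in all 15 alternative fits, and 12 were lost in at least 1 (among them Crlf2, Il2rb, Jak2, Stat3, Stat6, Cish, Pias1, Pik3r1, Mcl1, Pim2 and Ccnd2). For these list genes too, the part of other blood cells in the differences between the cell types was not tested.

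Among 7 related receptor chains, 2 were higher in small pre-B controls and 2 lower. Il2ra, the alpha chain of the interleukin-2 receptor and a marker of pre-B cells (CD25), rose 21.4-fold (16.7 ± 5.49 to 356 ± 87.9 CPM, adjusted p = 1.03e-05) and Il15ra rose 2.18-fold. Crlf2, which pairs with Il7r to form the receptor for Tslp, fell 1.54-fold (39.3 ± 1.4 to 25.5 ± 4.18 CPM, adjusted p = 0.00787). Il2rb, a chain of the interleukin-2 and interleukin-15 receptors found on T and natural killer cells, was 7.77-fold lower (214 ± 25 to 27.6 ± 23.3 CPM, adjusted p = 0.0152), beside the markers of those cells given above. Of the 7 other JAK and STAT genes, all 7 were called: 1 higher, Stat6 (log2 fold change 0.47), and 6 lower, among them Jak2, Tyk2, Stat2, Stat3 (log2 fold change -0.32) and Stat4 (-1.46). The call of Jak2 was lost in 7 of 15 alternative fits and that of Stat3 in 5. Of all genes tested, 26.0% were called higher and 29.4% lower in this comparison.

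Of 13 inhibitors of the pathway, 3 were higher and 3 lower in small pre-B controls, shares near those over all genes tested (26.0% and 29.4%). Socs1, which blocks JAK kinases, rose 4.95-fold (7.8 ± 0.573 to 38.6 ± 9.07 CPM), and Pias1 and Pias2 rose by less (log2 fold changes 0.43 and 0.52), the call of Pias1 being lost in 12 of 15 alternative fits. Cish, itself a target of STAT5, was 3.41-fold lower, Socs3 was 12.0-fold lower (15.8 ± 1.02 to 1.31 ± 0.229 CPM) and Ptpn6, the phosphatase SHP-1, was 3.36-fold lower (652 ± 9.47 to 194 ± 0.92 CPM). In the phosphoinositide 3-kinase (PI3K) arm, 6 of 9 genes were higher and 0 lower, among them Pik3ca, Pik3r1, Akt1, Mtor and Foxo1, the last a transcription factor that PI3K signalling holds out of the nucleus, by 3.85-fold (146 ± 2.62 to 561 ± 56 CPM).

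Of 9 targets for survival and proliferation, 4 were higher and 3 lower, beside 26.0% and 29.4% of all genes tested. Among the survival genes, Bcl2l1 rose 4.79-fold (62.3 ± 3.05 to 299 ± 48 CPM), Mcl1 1.95-fold, and the kinase genes Pim1 and Pim2 2.8-fold and 1.87-fold, while Bcl2 was 5.84-fold lower (53.6 ± 4.66 to 9.21 ± 7.07 CPM). The growth genes Myc and Ccnd2 were 11.6-fold and 4.76-fold lower. Of the 5 factors tested that are known at the Il7r gene, 3 were higher and 0 lower: Ebf1 (4.51-fold), Ets1 (2.15-fold) and Gabpa (1.56-fold). Runx1 and Gfi1 did not pass (log2 fold changes 0.20 and 0.43). In KO mice the counts by list were 2 higher and 1 lower for the receptor chains, 0 and 6 for the other JAK and STAT genes, 3 and 4 for the inhibitors, 5 and 1 for the PI3K arm, 5 and 2 for the targets and 3 and 0 for the factors at Il7r. Of all genes tested in KO mice, 24.0% were called higher and 27.3% lower.

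The knockout in small pre-B cells left 1 of the 51 genes past the threshold, Il2ra, beside 3.02% of all genes tested. In pro-B cells it left 0 of 51, beside 0.0353% of all genes. In small pre-B cells Il2ra was at 437, 263 and 369 CPM without and 144, 120 and 152 CPM with the knockout, with every KO library below every control (log2 fold change -1.36, SE 0.23, adjusted p = 0.0259). It kept its direction in all 16 alternative fits (log2 fold changes of -1.54 to -1.19) but lost the call in 10 of them (adjusted p 3.75e-06 to 0.217 over the 16). Leaving out any 1 of the pro-B libraries, small pre-B control 1 or any 1 of the small pre-B KO libraries lost it (adjusted p = 0.0582 to 0.0969). In pro-B cells Il2ra was at 20.5 and 12.8 CPM in controls against 8.99 and 6.76 CPM (log2 fold change -1.08, adjusted p = 0.392).

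Other genes of the lists with large values did not pass in small pre-B cells. Socs2, a STAT5 target that dampens cytokine signals, was at 10.4, 41.0 and 9.66 CPM without and 105, 98.2 and 73.1 CPM with the knockout (log2 fold change 2.18, adjusted p = 0.0553). Socs3 (1.93, adjusted p = 0.0529), Myc (1.44, adjusted p = 0.103) and Cish (1.41, adjusted p = 0.104) likewise missed it, and so did Ccnd2 (19.3, 44.6 and 7.24 against 82.8, 143 and 58.1 CPM, adjusted p = 0.0846). With small pre-B control 2 left out 6 genes of the lists passed, and 8 with DESeq2, where 1667 and 1869 of all genes tested passed. The comparison shares the small pre-B controls with the comparison of the cell types in control mice, so values of Il2ra, Socs3, Ccnd2, Myc and Cish in the 2 are not independent. T cell markers were also higher in the small pre-B KO libraries, at a summed 158 to 237 CPM against 22.1 to 89.2 in controls. Cd4 did not follow, at 1.11, 3.18 and 0.71 CPM in controls against 0.173, 4.62 and 0.186 CPM in KO libraries. Of the 12 genes 6 were called, beside 3.02% of all genes tested. Pro-B markers were at 810 to 1792 against 290 to 875 CPM, with 1 of 6 called (Kit) beside the same share. The part of either in these values was not tested.

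**Figure D4:**
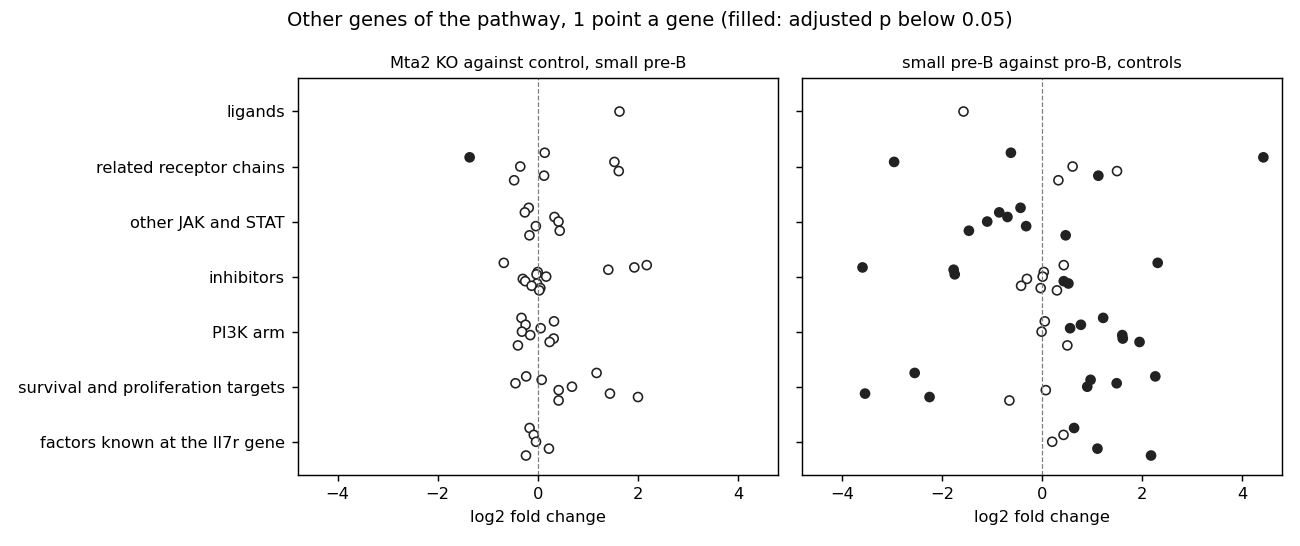
Fitted log2 fold change (horizontal axis) of each tested gene of the 7 pathway lists (rows, 1 point a gene, the height within a row having no meaning), for KO against control in small pre-B cells on the left and for the 2 cell types in control mice on the right, filled where the adjusted p was below 0.05. Only Il2ra is filled on the left, at -1.36, against 33 genes on the right, among them Il2ra at 4.42.

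Across the 10 libraries the 6 genes varied unequally, with an SD of log2 CPM of 0.85 for Il7r, 0.793 for Jak3 and 0.545 for Stat5a against 0.257 for Stat5b, 0.188 for Il2rg and 0.131 for Jak1. The genes whose log2 CPM was most like each of them were ranked by Pearson's r over the 10 libraries among 8798 other genes with at least 10 CPM on average. The libraries form 2 cell types, so for genes that differ between these r mainly ranks genes by the same step, and it is a description only. Il7r was most like Irf4 (r = 0.996), Pik3c2b and Cdc37l1. Jak3 was most like Crlf2 (r = 0.993), Emb and Atp8b4, and Stat5a was most like Slk (r = 0.996), Tm7sf3 and Ptpre. Stat5b came nearest to BC147527 (r = 0.971), Slc33a1 and Pcyt1a. Il2rg and Jak1, which did not pass between the cell types, had less close partners, Nat6 (r = 0.883) and Lax1 for Il2rg and Upf1 (r = 0.859), Aak1 and Prdm10 for Jak1.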

How the data were processed

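Counts per gene were used as the authors deposited them, 1 library a file and not normalized; per the file headers they were made with featureCounts 1.4.3-p1 over the exons of an mm10 annotation, with no strand, overlap or multi-mapping option recorded. Per the labels' protocols the libraries came from a stranded mRNA kit. CASAVA 1.82, STAR and mm9 appear in the submitters' processing notes, but the files' exon positions are those of mm10.

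Groups came from the sample labels. Genes were filtered with filterByExpr (minimum count 10, total 15), which left 14161 of 23420, and tested with edgeR 4.0.16 in R 4.3.3 (TMM scaling, robust quasi-likelihood fit of 4 group means to all 10 libraries, Benjamini-Hochberg over all genes tested, threshold 0.05). Fold changes use a prior count of 0.125. Intervals are at 95%. Ratios were tested over libraries with scipy 1.17.1. The scripts were tested on simulated data. Molecules were not tagged, so several reads can come from 1 molecule and floors of 3 counts cover counting error only.

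The 6 genes, the pathway and marker lists and the tests were chosen with earlier results of these data known, and the motifs after the sequences were seen. All 6 genes were named in every comparison; from each pathway list every gene past the threshold could be named, otherwise up to 4 with the smallest p; the 3 most alike genes were taken over log2 CPM (prior count 2), leaving out predicted and small RNA genes. Alternatives were DESeq2 size factors, the DESeq2 1.42.0 Wald test, no count filter, the compared groups alone, the title number as a replicate block, each library left out in turn, the libraries with Y-linked RNA alone and, for ratios, no length scaling and a pseudocount of 1 CPM. No libraries of a group were duplicates. The OcaB KO, double KO and pre-B samples were not analysed here. Some genes that these rules would name are not reported here.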

Additional observations from a re-analysis of the deposited data

How the results depend on the processing

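Over the alternatives tried, the calls of Il7r, Jak3 and Stat5a between the cell types in controls held in all 15, and none of the 6 genes was called for the knockout or for the difference of its effects in any. Counts over all genes moved more. For the knockout in pro-B cells 5 genes became 182 with DESeq2, 8 without a filter, 856 in the compared groups alone and 0 in the libraries with Y-linked RNA alone, and 0 to 25 with 1 library left out. In small pre-B cells 428 became 1869 with DESeq2, 0 in the compared groups alone and 0 with Y-linked RNA alone, and 1 to 1667 with 1 library left out (1 without control 1, 1667 without control 2). The difference of the effects had 0 genes, 58 with DESeq2 and 0 to 40 with 1 library left out. The cell types in KO mice had 7262, and 4673 to 8657 with 1 library left out. The cause was not tested.

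With 1 library left out, values near 0 that did not pass changed sign. The knockout in pro-B cells ranged from -0.248 to 0.0555 for Il2rg, from -0.215 to 0.0902 for Jak1 and from -0.0958 to 0.256 for Jak3, the sign turning without KO library 2. The difference of the effects ranged from -0.0679 to 0.243 for Il7r (turning without pro-B control 1), from -0.232 to 0.0736 for Jak1 (without pro-B KO library 1) and from -0.0606 to 0.43 for Jak3 (without small pre-B control 3). Between the controls, Jak1 ranged from -0.0056 to 0.0817 (turning without the first control of either cell type) and Mta2 from -0.299 to 0.0757 (without small pre-B control 2). Between the cell types in KO mice, Il2rg ranged from -0.0667 to 0.237 (without pro-B KO library 2) and Jak1 from -0.201 to 0.104 (turning without pro-B KO library 1 and without small pre-B KO library 3). The KO difference of the log2 Stat5b to Stat5a ratio ranged from -0.00446 to 0.0736 (turning without small pre-B control 3). With Y-linked RNA alone, Jak3 was -0.0208 for the knockout in small pre-B cells and -0.112 for the difference.

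Same-numbered control and KO titles deviated together with r of 0.102, 0.155 and 0.0449 in small pre-B and 0.0147 in pro-B cells, so the numbers were not taken as pairs, although each small pre-B library correlated best with the number in its title. For the third small pre-B control, title and file header disagree on that number (the header gives that of the second), so its number, its r of 0.0449 and the block are less certain. With the number as a replicate block the knockout had 0 genes in pro-B and 153 in small pre-B cells, and 0 for the difference. Each of the 6 genes had 757 or more counts in every library, and which of depth and number of libraries limits the tests more was not tested.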
